A study of Mus musculus with 16 samples.

Results

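Cation-chloride cotransporters are the membrane proteins of the Slc12 gene family. The 8 genes described here were chosen by name from the 37255 gene intervals of the deposited ATAC-seq table: Slc12a1, Slc12a2, Slc12a3, Slc12a4, Slc12a5, Slc12a7, Slc12a8 and Slc12a9. The choice was made with earlier results of these data known, among them the presymptomatic difference of Slc12a2. Levels and that difference are therefore given as a description.

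ATAC-seq counts sequencing adapters that a transposase inserts into accessible DNA. The assay was applied to retinal ganglion cells, whose axons form the optic nerve. They were sorted by FACS from eyes of female mice, and each library was amplified for 10 cycles. EAE, experimental autoimmune encephalomyelitis, is an immune-driven disease model with loss of myelin, and the mice were 7 to 8 weeks old at its induction. The groups were naive control mice without EAE (n = 5), and EAE mice at the presymptomatic stage (n = 4), at onset (n = 3) and at peak (n = 4). Strain, immunogen, days after induction, sorting markers and any pooling of animals are not given in the sources used here. Libraries are not tied to individual mice in the labels. The tests therefore rest on the variation from library to library, which may be technical in part.

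Members of this family move chloride together with sodium, potassium or both, driven by the sodium and potassium gradients. NKCC1 (Slc12a2) carries chloride into cells and KCC2 (Slc12a5), which is largely restricted to neurons, carries it out. Their balance sets whether GABA and glycine, the inhibitory transmitters of the retina, hyperpolarize or depolarize a neuron. WNK kinases act through the kinases SPAK and OSR1 to stimulate the sodium-coupled importers and to inhibit the potassium-coupled exporters.

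The deposited length-scaled values (RPKM) fit a counted length of the gene span less 2000 bp. The counted interval is taken here as the span without the outermost 1000 bp at each end. The length alone does not show which bases were left out. With that placement a signal describes the gene body and not the promoter at the outer start. The deposited starts count from 0 and are printed here from 1. No source used here gives the build. Both ends of 4 of the 8 spans equalled those of GRCm38.p6 in RefSeq (Slc12a2, Slc12a3, Slc12a4 and Slc12a7). The lower coordinates of the 8 differed from RefSeq by at most 90 bp. In RefSeq the span of Slc12a9 reached 3210 bp further at its higher coordinate, the end where this minus-strand gene starts. Slc12a1 lay on chromosome 2 from 125152600 to 125230002, and Slc12a5 on the same chromosome from 164960821 to 164999731. Slc12a2 lay on chromosome 18 from 57878512 to 57946821. Slc12a3 and Slc12a4 lay on chromosome 8, from 94329109 to 94366222 and from 105943590 to 105966149. Slc12a7 lay on chromosome 13 from 73733052 to 73816754, Slc12a8 on chromosome 16 from 33517333 to 33664135, and Slc12a9 on chromosome 5 from 137314558 to 137336860. Slc12a4 and Slc12a9 are on the minus strand and the others on the plus strand.

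**Figure D1:**
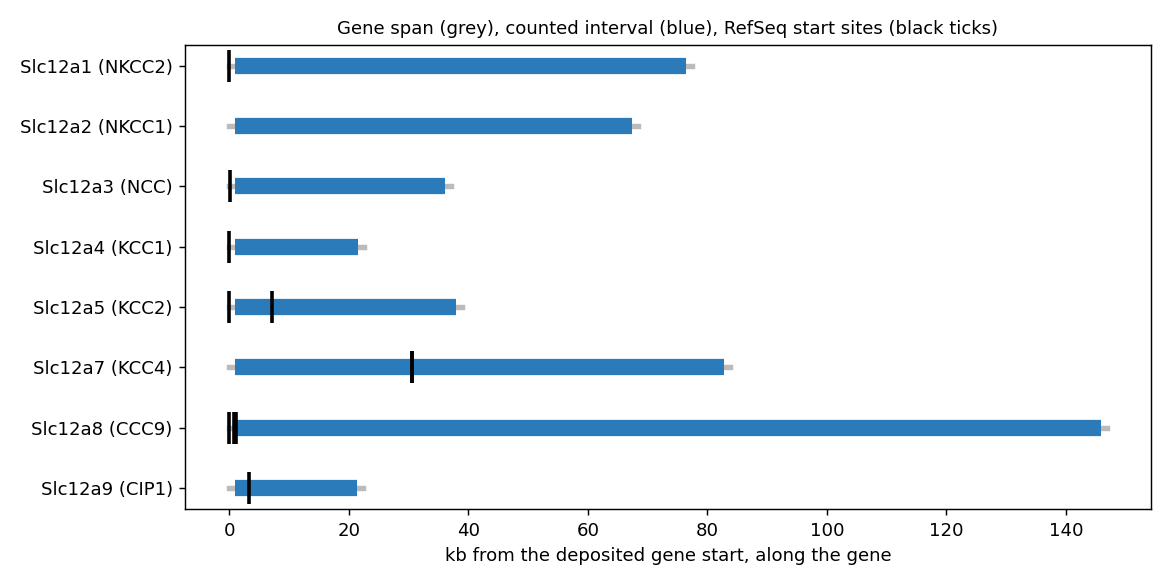
Spans of the 8 genes (grey), counted intervals as placed here (blue) and RefSeq start sites with a promoter window (black ticks), in kb from the deposited start along each gene. The start sites of Slc12a5 at 7.17 kb, Slc12a7 at 30.6 kb and Slc12a9 at 3.28 kb lie inside the counted intervals. Slc12a2 has no tick because windows on its chromosome were not used.

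With the counted intervals placed in this way, start sites inside the gene body entered the counts of some members. RefSeq promoter windows, from 250 bases before to 50 after a start on GRCm38.p6, matched 7 of the 8 members with 11 windows. Of these, 4 windows in 3 genes (Slc12a5, Slc12a7 and Slc12a9) lay wholly inside the counted interval. A further window of Slc12a8 lay inside with 252 of its 300 bases, and 6 windows lay outside. The windows below are shown because, with that placement, they separate promoter DNA that was counted from promoter DNA that was not. The first Slc12a5 window was outside the counted interval and the other 3 were inside. Each is printed 5′ to 3′ on the gene's strand, with capitals for the GC box GGGCGG and the E box CACGTG on either strand.
Slc12a5, outer start, chr2:164960596-164960895, plus strand: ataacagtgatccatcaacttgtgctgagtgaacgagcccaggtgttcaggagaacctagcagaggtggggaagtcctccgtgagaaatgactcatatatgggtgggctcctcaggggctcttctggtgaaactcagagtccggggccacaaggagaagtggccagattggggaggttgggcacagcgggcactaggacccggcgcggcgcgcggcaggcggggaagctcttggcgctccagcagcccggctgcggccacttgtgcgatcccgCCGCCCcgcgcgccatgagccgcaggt
Slc12a5, inner start, chr2:164967738-164968037, plus strand: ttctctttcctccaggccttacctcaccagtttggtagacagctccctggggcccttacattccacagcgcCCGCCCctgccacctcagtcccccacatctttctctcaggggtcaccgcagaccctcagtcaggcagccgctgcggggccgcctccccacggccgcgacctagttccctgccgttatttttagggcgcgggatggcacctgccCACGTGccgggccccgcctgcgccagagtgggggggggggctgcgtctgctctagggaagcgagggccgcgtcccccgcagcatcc
Slc12a7, inner start, chr13:73763410-73763709, plus strand: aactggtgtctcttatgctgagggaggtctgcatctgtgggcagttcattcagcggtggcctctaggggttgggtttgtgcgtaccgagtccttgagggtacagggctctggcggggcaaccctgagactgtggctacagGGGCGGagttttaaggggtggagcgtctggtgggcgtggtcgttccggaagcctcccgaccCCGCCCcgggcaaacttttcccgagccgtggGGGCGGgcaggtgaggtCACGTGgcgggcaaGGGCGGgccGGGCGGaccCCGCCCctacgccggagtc
Slc12a9, inner start, chr5:137333533-137333832, minus strand: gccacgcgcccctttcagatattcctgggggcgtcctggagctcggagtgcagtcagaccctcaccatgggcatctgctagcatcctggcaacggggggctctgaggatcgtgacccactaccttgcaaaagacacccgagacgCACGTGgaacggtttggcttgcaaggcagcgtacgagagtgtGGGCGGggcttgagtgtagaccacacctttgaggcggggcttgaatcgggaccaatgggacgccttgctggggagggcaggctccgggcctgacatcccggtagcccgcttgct

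The E box was found once in each of the 3 inner windows printed, and in 7.15% of 32851 RefSeq promoter windows of the same length. It was found in none of the 6 windows of these genes outside the intervals, nor in the Slc12a8 window that lay inside in part. The E box contains the base pair step CG. That step occurred 21, 23 and 19 times in the printed inner windows of Slc12a5, Slc12a7 and Slc12a9. It occurred 3 to 21 times in the 6 windows outside, against a median of 7 over all windows. The part of base composition in these matches was not tested. The GC box was found 6 times in the Slc12a7 window and once in each of the other windows printed, and at least once in 35.7% of all windows. GC content was 63.7% and 68.3% in the outer and inner Slc12a5 windows, 66.7% in that of Slc12a7 and 63.0% in that of Slc12a9, against a median of 52.7% over all windows. A match is a run of letters and does not show that a factor binds there.

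The libraries held 3.71 to 30.9 M reads in gene intervals, of which 1.58 to 15.1 M were nuclear. The peak group had the lowest median of nuclear reads (3.42 M, range 1.58 to 3.70), and mitochondrial intervals took 8.36% to 64.7% of reads, with the lowest share in onset replicate 3. Markers of ganglion cells lay above most genes in the naive libraries (median percentile 82.9 over 13 genes). So did markers of rods (94.8 over 9 genes), of amacrine cells (93.7 over 6 genes), and of Müller glia and astrocytes (82.8 over 8 genes). The summed level of the rod markers was 188 to 424 CPM in onset against 91.8 to 193 in naive libraries. All 9 tested rod markers had values above naive at onset, with 1.04 as the median on the log2 scale and 0 past the adjusted threshold. The joint list of Müller glia and astrocyte markers had 0 of 8 values above naive at peak (median −0.60). Its summed level was 44.5 to 66.8 CPM against 59.5 to 82.4. Amacrine markers had 0 of 6 above naive at peak (median −0.47), with 150 to 236 CPM against 133 to 393. Ganglion cell markers had 3 of 13 values above naive at onset (median −0.27) and 12 of 13 at peak (median 0.25), with sums of 269 to 389 and 355 to 577 CPM against 303 to 472 in naive libraries. Among them Slc17a6, a vesicular glutamate transporter, was at −0.84 ± 0.29 (SE) at onset, with 8.25 to 12.4 CPM against 13.5 to 19.9. No tested marker of these lists passed the adjusted threshold in edgeR. The part of other retinal cells in the results below was not tested. In bulk libraries fewer cells of a type and less signal per cell cannot be told apart.

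Within the naive state, the chloride exporter gene Slc12a5 had the highest signal per length of the family and the importer gene Slc12a2 the lowest. Signal per length is given as reads per kb of interval and per M of nuclear reads. The naive median was 1.35 for Slc12a5, at percentile 88.8 of 35258 nuclear intervals of at least 500 bp, and 0.417 for Slc12a2, at percentile 31.4. The median over all those intervals was 0.580. KCC4 (Slc12a7), a potassium-chloride exporter, followed at 1.03 (percentile 80.9). NKCC2 (Slc12a1) and NCC (Slc12a3), the salt reabsorbing transporters of the kidney tubule, stood at percentiles 72.0 and 70.9, above Slc12a9 (0.719, percentile 62.9) and KCC1 (Slc12a4, 0.573), a widely expressed exporter. Slc12a8, an outlying member of the family by sequence, was at 0.539. The naive ranges of neighbours in this order overlapped, for example 0.680 to 1.61 for Slc12a5 and 0.763 to 1.46 for Slc12a7. The 3 genes with an inner start window in the interval held percentiles 88.8, 80.9 and 62.9, against 45.7 for Slc12a8, whose window lay inside in part. Slc12a1, Slc12a3 and Slc12a4, with windows outside only, held 72.0, 70.9 and 49.3. The window match left out Slc12a2. Signal in a gene body is not a measure of transcript level.

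All 8 genes passed the filter on low counts. Reads per library ranged from 22 in Slc12a4 to 1734 in Slc12a7. Differences between stages were tested with edgeR's quasi-likelihood model on all 29902 tested genes, with Benjamini-Hochberg adjustment and a threshold of 0.05. None of the 48 comparisons of a member between stages passed (adjusted p from 0.801 to 1.00), and 0% of all tested genes passed in any of the 6 comparisons. At an unadjusted p under 0.05 there was 1 of the 48, Slc12a2 at the presymptomatic stage. The share of all tested genes under that level was 1.11% for presymptomatic against naive, 4.49% for onset and 3.53% for peak. It was 3.95% for onset against presymptomatic, 3.41% for peak against presymptomatic and 6.58% for peak against onset. Over all stages against naive it was 3.1%, with none of the 8 members. In 4 of the 48 comparisons the libraries of both stages did not overlap. Among all tested genes this held, in either direction, for 0.846% presymptomatic, 2.53% at onset and 0.977% at peak against naive. It held for 10.1% in onset against presymptomatic, 2.72% in peak against presymptomatic and 6.75% in peak against onset. The values below are described on this footing.

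**Figure D2:**
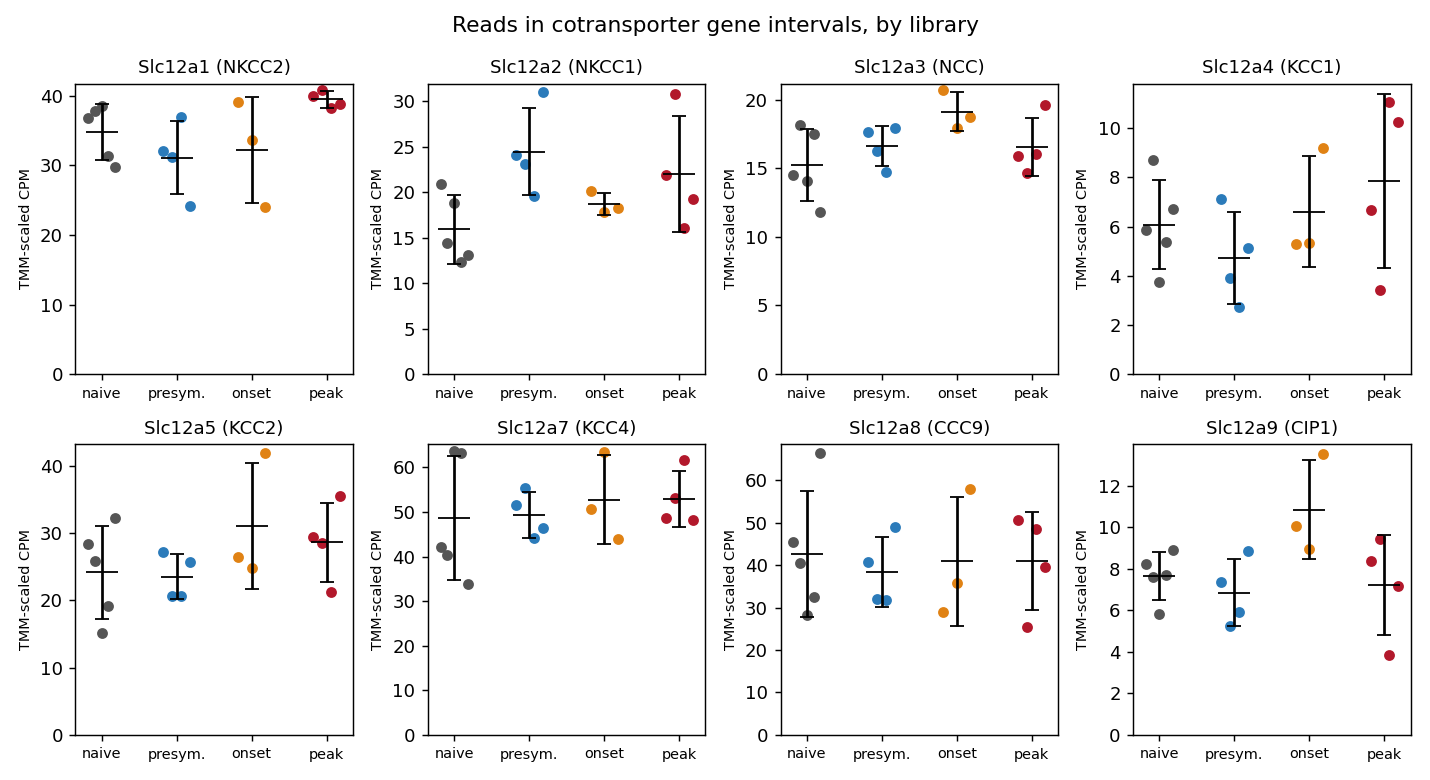
TMM-scaled CPM (counts per M counts) of the 8 genes in each of the 16 libraries by stage, with the mean and SD in black and a vertical axis from 0 in each panel. Slc12a2 lies between 19.5 and 31.0 CPM in presymptomatic libraries against 12.3 to 20.9 in naive ones, and the stages of most other genes overlap widely.

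The importers come first. Slc12a2 had 20.9, 14.4, 18.8, 12.3 and 13.1 CPM in naive replicates 1 to 5, where CPM is counts per M counts after TMM scaling. The presymptomatic replicates 1 to 4 had 24.1, 23.1, 19.5 and 31.0 CPM. Presymptomatic libraries were the higher ones, and only naive replicate 1 reached into their range. The mean was 24.4 ± 4.79 CPM (SD, n = 4) against 15.9 ± 3.76 (SD, n = 5), with a log2 fold change of 0.61 ± 0.24 (SE). This is the difference known when the genes were chosen, and nothing is read from it.

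Onset libraries had 20.1, 17.8 and 18.2 CPM of Slc12a2 and peak libraries 21.8, 30.8, 16.1 and 19.3. Every onset value lay within the naive range, and peak replicates 1 and 2 lay above it. The log2 fold changes against the same naive libraries were 0.23 ± 0.26 and 0.47 ± 0.25 (SE), with adjusted p = 0.999 and 1.00 in edgeR. Without peak replicate 2, the highest peak library, the peak value was 0.26. Between EAE stages, onset minus presymptomatic was −0.38 ± 0.28 and peak minus presymptomatic −0.14 ± 0.26 (SE).

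Slc12a1 had 24.2 to 37.0 CPM in presymptomatic, 24.0 to 39.1 in onset and 38.2 to 40.9 in peak libraries, against 29.7 to 38.5 in naive ones. The 4 peak libraries were close together, with a coefficient of variation of 3.01%, and lay above all presymptomatic ones. Such a gap between these stages, in either direction, was found in 2.72% of all tested genes. The log2 fold change between them was 0.34 ± 0.22 (SE, edgeR adjusted p = 0.999), and 0.10 when scaled by library totals, where the median gene stood at −0.23. Slc12a3 had 11.8 to 18.2 CPM in naive and 17.96 to 20.7 in onset libraries, a log2 fold change of 0.33 ± 0.24 (SE, edgeR adjusted p = 0.995). Its onset libraries also lay just above the presymptomatic ones, whose highest value was 17.9, as 10.1% of all tested genes were apart in that comparison in either direction. Slc12a3 varied least among libraries of a stage, with an SD of 0.19 log2 CPM. Counting error alone would give an SD of about 0.12. Only 0.648% of tested genes of a like level (within 0.5 log2 CPM) varied less.

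Among the exporters, Slc12a5 had 28.4, 25.9, 15.2, 19.2 and 32.2 CPM in naive replicates 1 to 5 and 27.2, 20.7, 20.6 and 25.6 in presymptomatic replicates 1 to 4. Onset replicates 1 to 3 had 26.5, 24.8 and 41.8 CPM, and peak replicates 1 to 4 had 29.3, 28.5, 21.2 and 35.4. Onset replicate 3 was the highest library and naive replicate 3 the lowest, and the ranges of all stages overlapped that of the naive libraries. The log2 fold changes against naive were −0.04 ± 0.24 presymptomatic, 0.36 ± 0.26 at onset and 0.24 ± 0.25 at peak (SE, edgeR adjusted p = 1.00, 0.994 and 1.00). Without onset replicate 3, which also had the lowest mitochondrial share (8.36%), the onset value was 0.09. The part of that share in the result was not tested.

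Slc12a7 had 42.1, 40.4, 63.7, 63.2 and 33.8 CPM in the naive replicates. The EAE libraries had 43.9 to 63.6 CPM, all inside the naive range. Its log2 fold changes against naive were 0.02 ± 0.21, 0.12 ± 0.23 and 0.12 ± 0.21 (SE) in stage order. Slc12a4 had 2.72 to 11.1 CPM over the 16 libraries and the widest spread of the family, with an SD of 0.57 log2 CPM within stages. Counting error alone would give an SD of about 0.20. Its mean was 7.86 ± 3.53 CPM at peak (SD, n = 4) against 4.72 ± 1.87 presymptomatic (SD, n = 4), and the log2 difference was 0.72 ± 0.40 (SE, edgeR adjusted p = 0.999).

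Of the members with less settled transport roles, Slc12a9 had 8.23, 7.58, 5.82, 7.70 and 8.91 CPM in the naive replicates and 10.0, 8.94 and 13.5 in the onset replicates. The onset libraries all lay above the naive ones, although onset replicate 2 and naive replicate 5 were almost level. Without onset replicate 3 the log2 fold change, given next, was 0.31. Groups were apart in either direction in 2.53% of all tested genes in this comparison. The log2 fold change was 0.50 ± 0.32 (SE, edgeR adjusted p = 0.985). Presymptomatic libraries had 5.22 to 8.85 and peak libraries 3.85 to 9.41 CPM, and only 23 to 66 reads lay behind the peak values. The onset libraries thus lay just above all presymptomatic ones, a gap found in either direction in 10.1% of all tested genes. Onset minus presymptomatic was 0.68 ± 0.34 (SE) on the log2 scale. Peak minus onset was −0.59 ± 0.34 (SE), with the lowest edgeR adjusted p of the family (0.801). Slc12a8 ranged from 25.4 to 66.4 CPM. The highest value was in naive replicate 5 and the lowest in peak replicate 2. Its log2 fold changes against naive lay between −0.16 and −0.06.

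**Figure D3:**
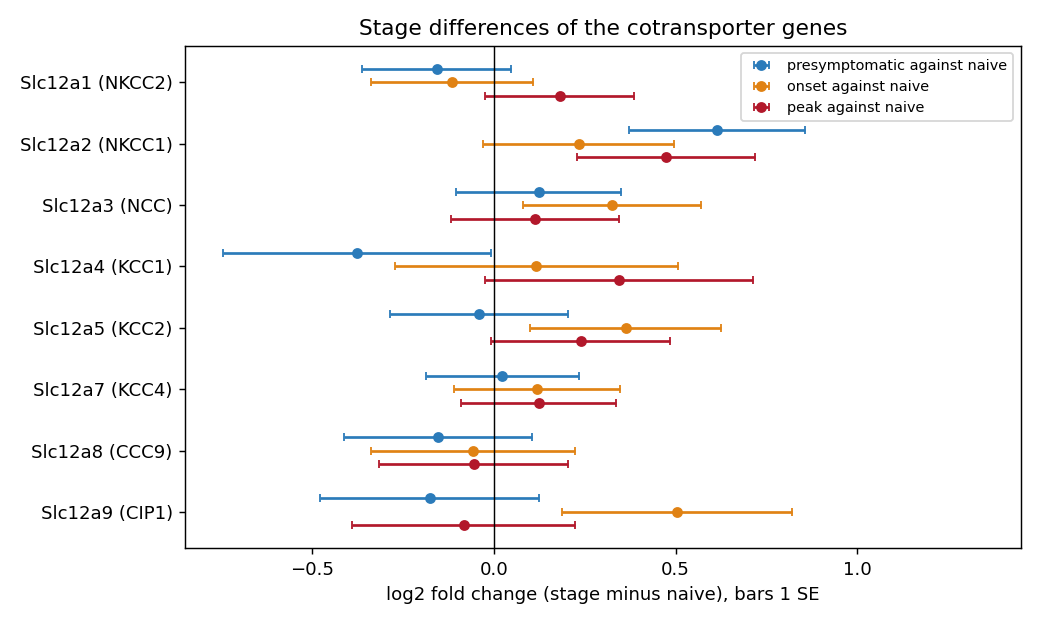
Log2 fold changes of the 8 genes at each EAE stage against naive, with bars of 1 SE from the edgeR fit. The values run from −0.38 (Slc12a4, presymptomatic) to 0.61 (Slc12a2, presymptomatic), the 3 comparisons share the naive libraries, and none passed the threshold.

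Counted as a family, 3 of 8 genes had values above naive at the presymptomatic stage, 6 at onset and 6 at peak. The medians of their log2 fold changes were −0.10, 0.18 and 0.15, against −0.06, −0.01 and −0.03 over all tested genes. Of all tested genes, 41.6%, 48.6% and 47.1% had values above 0 in those comparisons. Onset against presymptomatic had 7 of 8 members above 0 (53.3% of all tested genes), peak against presymptomatic 6 (53.3%) and peak against onset 5 (52.1%). These counts depend on the scaling. With library totals in place of TMM, 7, 8 and 7 of the 8 members were above 0 at the presymptomatic stage, onset and peak against naive, where the median gene stood at 0.26, 0.60 and 0.04. Above that median gene were 3, 7 and 7 members. On the same scale 7 members were above 0 in onset against presymptomatic, 3 in peak against presymptomatic and 0 in peak against onset, where the median gene stood at 0.34, −0.23 and −0.53. Above it were 5, 6 and 4 members.

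Slc12a2 had fewer reads per kb than Slc12a5 in all 16 libraries. In naive replicates 1 to 5 it reached 41.0%, 30.9%, 68.9%, 35.8% and 22.6% of the Slc12a5 value, and in presymptomatic replicates 1 to 4 it reached 49.4%, 62.1%, 52.7% and 67.3%. Onset libraries had 42.2%, 39.9% and 24.3%, and peak libraries 41.4%, 60.1%, 42.2% and 30.3%. Presymptomatic libraries lay at the upper end, yet naive replicate 3 was above them all. The mean log2 ratio was −1.43 ± 0.59 in naive (SD, n = 5), −0.80 ± 0.21 presymptomatic (SD, n = 4), −1.54 ± 0.44 at onset (SD, n = 3) and −1.24 ± 0.40 at peak (SD, n = 4). Since Slc12a2 was known to differ when it was chosen, this ratio was not tested. Slc12a5 varied with a property of the libraries described below, and the part of that property in the ratio was not tested.

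**Figure D4:**
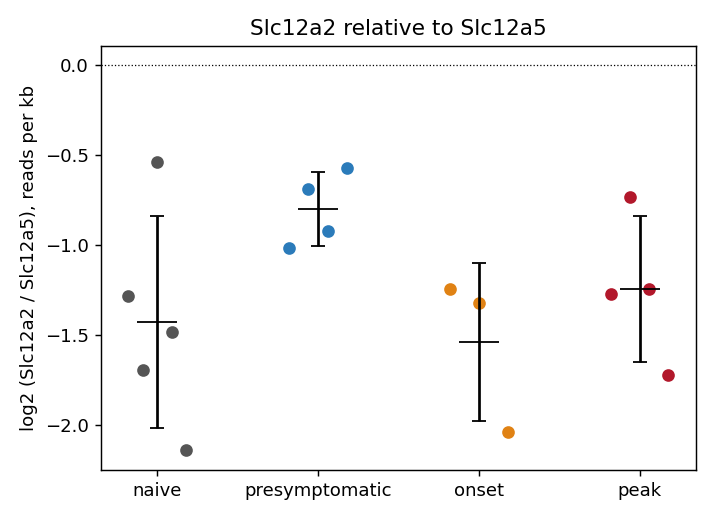
Log2 ratio of Slc12a2 to Slc12a5 reads per kb in each library, with the mean and SD in black and equality as the dotted line at 0. All 16 libraries lie below 0, and the 4 presymptomatic ones lie inside the naive range.

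Slc12a5, Slc12a7 and Slc12a9 varied with a property of the libraries, a relation that was not planned in advance. That property was the share of nuclear reads in 1450 intervals of olfactory and vomeronasal receptor genes, a gene family best known from the sensory neurons of the nose. Both measures come from the same library and depend on its composition. Slc12a5 was lower where the share was higher (Pearson r = −0.837, Spearman rho = −0.759, n = 16 libraries, permutation p = 5.00e-05 and 0.00109, adjusted over 8 genes p = 0.000400 and 0.00872). Without the 2 libraries farthest from the median share r was −0.721, and within stages it was −0.845. Slc12a7 was higher where the share was higher (r = 0.703 and rho = 0.70, with permutation p = 0.00245 and 0.00339 and adjusted values of 0.00744 and 0.0136), with r = 0.567 without the 2 farthest and 0.878 within stages. Slc12a9 was lower (r = −0.686 and rho = −0.615, with permutation p = 0.00279 and 0.0133 and adjusted values of 0.00744 and 0.0354), with r = −0.765 and −0.606. The other 5 genes did not pass, with r from −0.351 for Slc12a4 to 0.050 for Slc12a1 (permutation p of at least 0.124, adjusted p of at least 0.236). Relations at least this far from 0 were common: they held for 4.23% of all tested genes at the size of Slc12a5, 12.7% at that of Slc12a7 and 14.1% at that of Slc12a9.

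**Figure D5:**
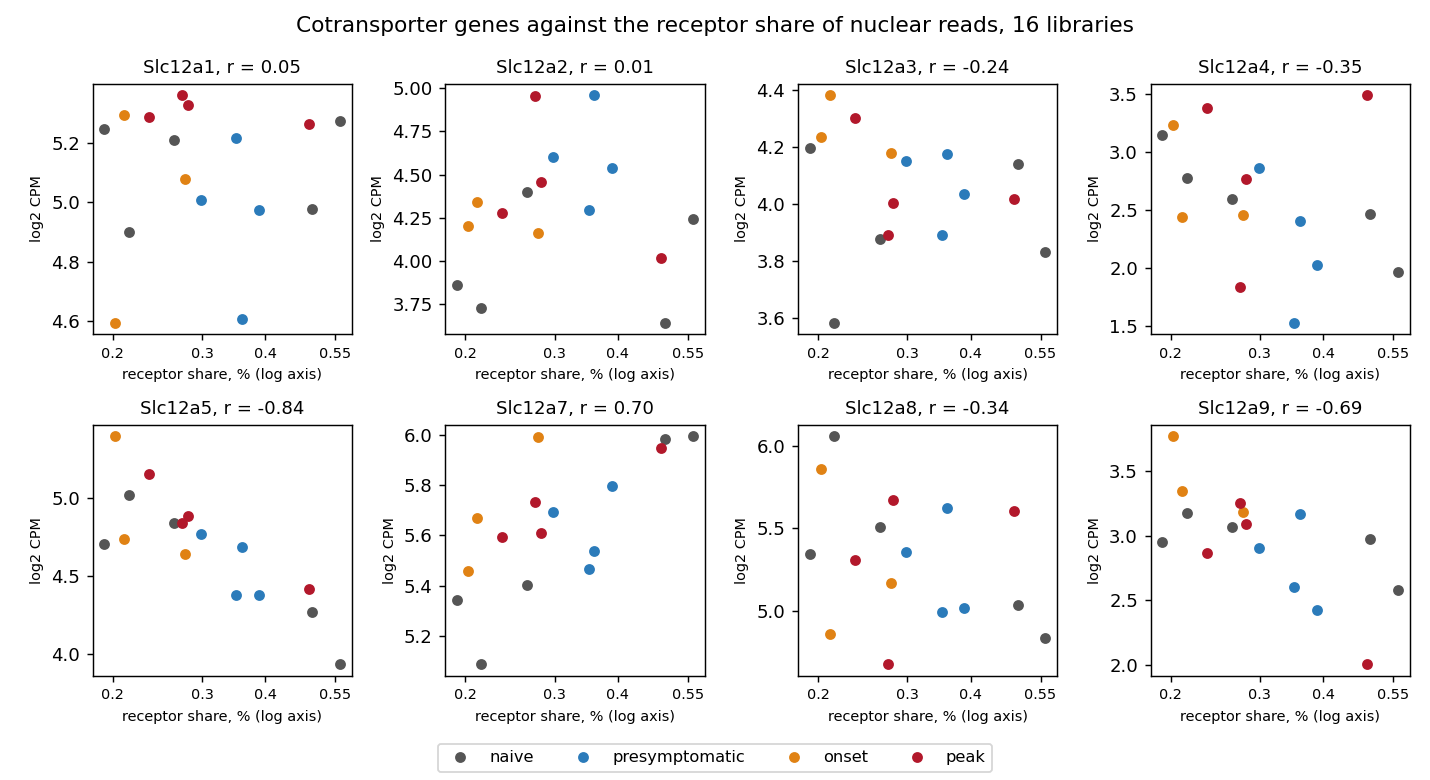
Log2 CPM of each gene against the receptor share of nuclear reads (log axis, percent) in the 16 libraries, coloured by stage. Slc12a5 and Slc12a9 fall and Slc12a7 climbs from left to right, while Slc12a2 (r = 0.01) shows no trend.

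Onset libraries had receptor shares of 0.202% to 0.278%, presymptomatic ones 0.298% to 0.389% and naive ones 0.192% to 0.562%. Naive replicate 3, with the highest ratio of Slc12a2 to Slc12a5, had the highest share. Naive replicate 4 and peak replicate 3 followed in share (0.495% and 0.487%), with ratios of 35.8% and 42.2%. With the log2 share as a covariate, an alternative chosen after seeing the data, the onset log2 fold change of Slc12a5 was 0.10 ± 0.22 (SE) and that of Slc12a9 0.30 ± 0.32. For Slc12a7 it was 0.38 ± 0.18 (SE), in place of 0.12 ± 0.23, with an edgeR adjusted p of 1.00. For Slc12a2 the presymptomatic, onset and peak values were 0.62, 0.20 and 0.47, close to those without the covariate. Among the 28 pairs of members, 0 had both permutation p values past adjustment. The pairs with the smallest Pearson p were Slc12a5 with Slc12a9 (r = 0.681 and rho = 0.559, with permutation p = 0.00388 and 0.0264 and adjusted values of 0.0885 and 0.2001) and Slc12a4 with Slc12a8 (r = 0.655 and rho = 0.676, with permutation p = 0.00632 and 0.0051 and adjusted values of 0.0885 and 0.143). Without the 2 farthest libraries r was 0.534 and 0.643, and within stages 0.729 and 0.703.

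Genes whose log2 CPM was most like that of a member were taken from 15333 genes of mean CPM 5 or more, as a description of the same 16 libraries. For Slc12a2 these included Papss1, a sulfate donor synthase (r = 0.812, rho = 0.753), and Cyp4x1, a cytochrome P450 (r = 0.801, rho = 0.609). For Slc12a5 they were 3110082I17Rik (r = 0.956, rho = 0.921), Traip, a ubiquitin ligase (r = 0.914, rho = 0.924), and Rrp12 (r = 0.898, rho = 0.838). They were picked as the highest of many and carry no test.

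Genes that act on or with the cotransporters were read from 5 lists, in which 0 tested members passed the threshold in any comparison. The lists were chosen with earlier results known. The 12 genes of the WNK pathway had 4 values above naive presymptomatic, 10 at onset and 6 at peak, with medians of −0.05, 0.12 and 0.00. Wnk1, the founding kinase, had 26.4 ± 0.755 CPM at onset (SD, n = 3) against 20.3 ± 6.43 in naive (SD, n = 5), and all onset values lay within the naive range. Its log2 fold changes were −0.19, 0.38 and 0.28 in stage order (SE 0.25 to 0.27). Wnk4 had a log2 fold change of 0.77 ± 0.48 (SE) at onset, from low levels of 4.32 against 2.49 mean CPM, with −0.01 ± 0.45 presymptomatic and 0.58 ± 0.46 at peak.

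All 6 sodium pump genes, which encode the subunits that maintain the sodium and potassium gradients, had values above naive at onset (median 0.18), against 3 of 6 presymptomatic (−0.03) and 1 of 6 at peak (−0.09). Atp1b2, a beta subunit, stood at −0.23 ± 0.58 (SE) presymptomatic, 0.61 ± 0.60 at onset and −0.93 ± 0.65 at peak.

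Of 20 GABA-A and glycine receptor genes, 6, 7 and 6 had values above naive in stage order, with medians of −0.11, −0.15 and −0.12. Gabrr2, a rho subunit, had 28.0 ± 7.66 CPM presymptomatic (SD, n = 4) and 30.3 ± 10.0 at onset (SD, n = 3) against 18.4 ± 6.09 in naive (SD, n = 5), with log2 fold changes of 0.59 ± 0.30 and 0.71 ± 0.32 (SE, edgeR adjusted p = 1.00 and 0.985). At peak it was at −0.23 ± 0.31 (SE), with a mean of 16.01 CPM. Glra1, the alpha-1 subunit of the glycine receptor, stood at −0.23, −0.06 and 0.32 in stage order (SE 0.23 to 0.25). Other chloride and bicarbonate transport genes had 5, 8 and 3 of 10 above naive, with medians of −0.02, 0.07 and −0.24. Car2 and Car7 encode cytosolic carbonic anhydrases. Car2 was at −0.04, 0.35 and −0.26 in stage order (SE 0.28 to 0.30), and Car7 at −0.60, −0.15 and −0.32 (SE 0.34 to 0.37).

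The list of KCC2 partners and regulators had 10 of 11 genes tested, of which 4, 6 and 5 had values above naive. Neto2, an auxiliary protein of KCC2 and kainate receptors, was at −0.44 ± 0.29 (SE) presymptomatic with 11.7 against 15.9 mean CPM, and at 0.02 ± 0.31 at onset and 0.25 ± 0.28 at peak. Ckb, brain creatine kinase, was at −1.55 ± 0.67 (SE) at peak, from 1.67 ± 0.469 CPM in naive (SD, n = 5) to 0.597 ± 0.527 (SD, n = 4). Peak values ran from 0 to 1.13 CPM, few reads in each library. The presymptomatic value of Ckb was −0.51 ± 0.58 (SE) and the onset value 0.47 ± 0.59.

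Some intervals shared DNA with other annotated genes. Slc12a1 overlapped 3 antisense RNA entries, Slc12a5 overlapped 1 and Slc12a4 contained Mir7074. Whether reads were counted by strand, and how reads in overlaps were assigned, is not given in the sources used here. Within 5 kb lay Ctxn2 beside Slc12a1, Mir138-2 beside Slc12a3, Lcat beside Slc12a4, Mmp9 and Ncoa5 beside Slc12a5, Nkd2 beside Slc12a7 and Trip6 beside Slc12a9.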

How the data were processed

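The table gives, for each of 37255 gene intervals and 16 ATAC-seq libraries, a read count and an RPKM value deposited by the authors. Trimming, alignment and counting tools were cutadapt, HISAT2 and HTSeq, per the submitters' processing notes. For their versions, the genome build, removal of duplicates, shifting of reads for the transposase and use of strand, nothing is given in the sources used here. The authors' RPKM values fit a length of the gene span less 2000 bp, taken here as 1000 bp left out at each end. The counts, with 13 mitochondrial intervals among them, were tested in edgeR 4.0.16 (R 4.3.3, limma 3.58.1) by the quasi-likelihood test with TMM scaling, filterByExpr (minimum count 10, minimum total 15), all 4 groups in 1 model and Benjamini-Hochberg adjustment at 0.05. The robust option was set to match an earlier treatment of these data. The scripts were tested on simulated data. A prior count of 2 entered the log2 CPM. Permutation tests of correlations were two-sided with 100000 resamples.

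Members and lists were chosen with earlier results of these data known. The genes named are all members, the 2 genes of each list with the smallest p in the test over the 3 contrasts with naive, the 3 genes most like Slc12a2 and Slc12a5, and genes within 5 kb of a member. Some genes that this rule picks are not reported here. Of the marker lists only those that bear on the results are described. Alternatives were DESeq2 1.42.0, library totals without TMM, no filter, no mitochondrial intervals, only the groups compared, a replicate block, each library left out, other scales for levels and the ratio, and the receptor share as a covariate, chosen after seeing the data. Precision follows the depth, from 22 reads of a member in a library upwards, and counting errors assume independent reads.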

Additional observations from a re-analysis of the deposited data

How the results depend on the processing

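No member passed the threshold in any of 1104 alternative values (lowest adjusted p 0.205 in edgeR, scaled by library totals), and 71 had the opposite sign to the value reported. Of these, 40 arose among 768 values with 1 library left out. Those 768 include values without a library of a stage not compared, which could change little. A further 15 arose with library totals, 8 with the replicate block, 6 with the receptor covariate chosen after seeing the data, and 2 without the filter. Library totals moved 26 of 48 values by more than 1 SD. Counts of all genes called, 0 as reported, were 0 whichever library was left out. DESeq2 called 1 gene for peak against naive, 1 for onset against presymptomatic, 5 for peak against onset and 5 over the stages. Library totals called 2 over the stages. With the replicate number as a block, 1 gene was called for onset against presymptomatic and no other call changed. Correlations of deviations ran from −0.34 to 0.37 (median −0.01) in 21 same-numbered pairs of libraries. In 74 other pairs they ran from −0.34 to 0.34 (median 0.01). Pairing or batches that do not follow the numbers were not tested. The naive percentile of Slc12a3 was 62.1 with all interval reads and 70.9 with nuclear reads. Leaving out onset replicate 3 gave Slc12a4 −0.21 (0.12 reported) and Slc12a8 −0.39 (−0.06 reported) at onset. Depth limits Slc12a4 and Slc12a9 most, with 22 and 23 reads in their shallowest libraries.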
